A study of Mus musculus with 12 samples.

Results

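The pyruvate dehydrogenase (PDH) complex and its regulators are described here through 9 genes: the 4 PDH kinases Pdk1, Pdk2, Pdk3 and Pdk4, the 2 PDH phosphatase catalytic subunits Pdp1 and Pdp2, and the complex subunits Pdha1, Pdhb and Dlat. They were chosen by gene symbol, as the rows of the count table that carry these names, and are 9 of 20295 genes in the table. All 9 passed the filter on low counts that left 13543 genes for testing. RNA was sequenced from primary white adipocytes (eWAs) obtained by floatation from collagenase-digested epididymal fat of lean male C57/BL6J mice and cultured in a hydrogel for 2 days, at 50000 cells per well. The 12 libraries form 4 groups of 3, namely cells given the DMSO vehicle alone (vehicle), cells given isoproterenol, an agonist of β-adrenergic receptors, for 3 h (ISO), cells given lipase inhibitors (Lip), and cells given the inhibitors and then isoproterenol for 3 h (Lip+ISO). The study's methods name the inhibitors as Atglistatin, against ATGL, and CAY10499, against HSL, the lipases that release fatty acids from stored fat. One figure legend of the study names another stimulus for these cells, an activator of lipolysis, whereas ISO is named in its main text and in the titles of the samples, and ISO was taken here. All groups share the same isolation, which removes the cells from their tissue, and the sources used here do not say how many mice went into a culture or how old they were.

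The PDH complex turns pyruvate, the end product of glycolysis, into acetyl-CoA inside mitochondria, and so decides how much sugar carbon enters the citric acid cycle or fat synthesis. PDH kinases shut the complex off by phosphorylating its E1 alpha subunit, and PDH phosphatases switch it back on. In muscle, heart and fat, Pdk4 is known as the kinase whose mRNA climbs in fasting and when fatty acids are plentiful, under nuclear receptors such as the PPARs, whereas Pdk2 is present in most tissues and Pdp2 is the phosphatase known to answer to insulin and feeding.

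The libraries held 22632220 to 43707557 counts. Levels are given as CPM (counts scaled to library size, with TMM factors), and levels of different genes are compared as CPM per kb of counted length. A gene was called when its adjusted p was at or under 0.05 in edgeR's quasi-likelihood test over all tested genes, with no minimum fold change. The summed level of 8 adipocyte markers was 23751 to 38037 CPM across the libraries, against 29.7 to 93.1 CPM for 7 macrophage markers, and 2 of 3 erythrocyte markers had no count in any library. In bulk samples such as these, fewer cells of a type and less RNA per cell cannot be told apart.

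The windows before the starts of Pdk4, Pdp1 and Pdp2 are shown because Pdk4 and Pdp2 are the regulators whose mRNA differed most between the groups and, of the libraries with ISO, those with the inhibitors had less Pdk4 and more Pdp2, while Pdp1 is the phosphatase gene that was not called in any comparison. The sequences are mouse genome mm9, read on the strand of the gene, 5′ to 3′, at chr6:5446310-5446528 on the minus strand (Pdk4), chr4:11893600-11893847 on the minus strand (Pdp1) and chr8:107115118-107115367 on the plus strand (Pdp2). They run from 250 bases upstream of the start in the count table to the last base outside any annotated exon of the gene, which is 32, 3 and 1 bases upstream. Capitals mark matches, on either strand, to the motifs described after the sequences.
Pdk4: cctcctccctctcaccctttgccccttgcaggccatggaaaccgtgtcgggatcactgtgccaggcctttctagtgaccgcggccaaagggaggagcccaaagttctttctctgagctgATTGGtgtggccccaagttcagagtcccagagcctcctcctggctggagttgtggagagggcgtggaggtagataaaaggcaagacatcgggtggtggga
Pdp1: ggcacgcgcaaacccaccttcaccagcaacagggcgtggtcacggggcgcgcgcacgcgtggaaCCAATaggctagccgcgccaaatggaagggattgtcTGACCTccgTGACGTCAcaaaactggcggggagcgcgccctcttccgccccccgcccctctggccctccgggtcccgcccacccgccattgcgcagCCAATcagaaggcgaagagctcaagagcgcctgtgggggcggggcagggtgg
Pdp2: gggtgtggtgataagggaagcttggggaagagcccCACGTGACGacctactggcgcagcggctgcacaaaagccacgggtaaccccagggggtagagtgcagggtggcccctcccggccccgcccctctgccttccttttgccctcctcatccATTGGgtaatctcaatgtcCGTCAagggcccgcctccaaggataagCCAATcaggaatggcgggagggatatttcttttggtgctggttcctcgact

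The motifs searched were TGACGTCA (the full cAMP response element), TGACG (its first part), AGGTCA (a nuclear receptor half-site), the direct repeat of that half-site with 1 base between its copies (read by PPAR with RXR), TGTTTAC (a forkhead motif), CACGTG (an E-box) and CCAAT. The 250 bases before Pdk4 held 1 CCAAT match, on the reverse strand, a motif found in 35.5% of the 20295 windows of this length. No match to the other 6 motifs stood there, which says only that these letters are not in this window. The window of Pdp2 held 2 matches to TGACG, which 21.2% of all windows hold, of which the first overlapped a CACGTG (6.92% of windows), and 2 to CCAAT. The window of Pdp1 held the full TGACGTCA, found in 2.14% of windows, which by itself gives 2 overlapping TGACG matches, together with 1 AGGTCA (12.04% of windows) and 2 CCAAT. The direct repeat was found before none of the 9 genes and in 0.0542% of windows, and TGTTTAC before none of the 9 and in 2.53%. Part of the Pdp1 window also lies in exons of 1700123M08Rik, a gene on the opposite strand.

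In vehicle cells, the catalytic subunit gene Pdha1 and the kinases Pdk4 and Pdk2 had the highest levels per length. Pdha1, which encodes the E1 alpha subunit, stood at 192 CPM per kb, ahead of Pdk4 at 122 and Pdk2 at 91.9 CPM per kb. Pdhb, for E1 beta, and Dlat, for the E2 acetyltransferase, followed at 80.6 and 64.8 CPM per kb. Pdk1, Pdp2, Pdk3 and Pdp1 lay far lower, between 4.93 and 6.29 CPM per kb. The libraries of Pdk4 and Pdk2 overlapped, as did those of each neighbouring pair among the 4 low genes, whereas the other neighbours did not overlap. Both phosphatase genes were thus more than 1 order of magnitude below the leading kinases on this scale. In the Lip+ISO cells the order was different. Pdha1 at 230 CPM per kb was then followed by Pdhb, Pdk2 and Dlat at 94.7, 69.1 and 64.4 CPM per kb, and Pdk4 at 15.5 CPM per kb overlapped Pdp2 at 16.1 CPM per kb.

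**Figure D1:**
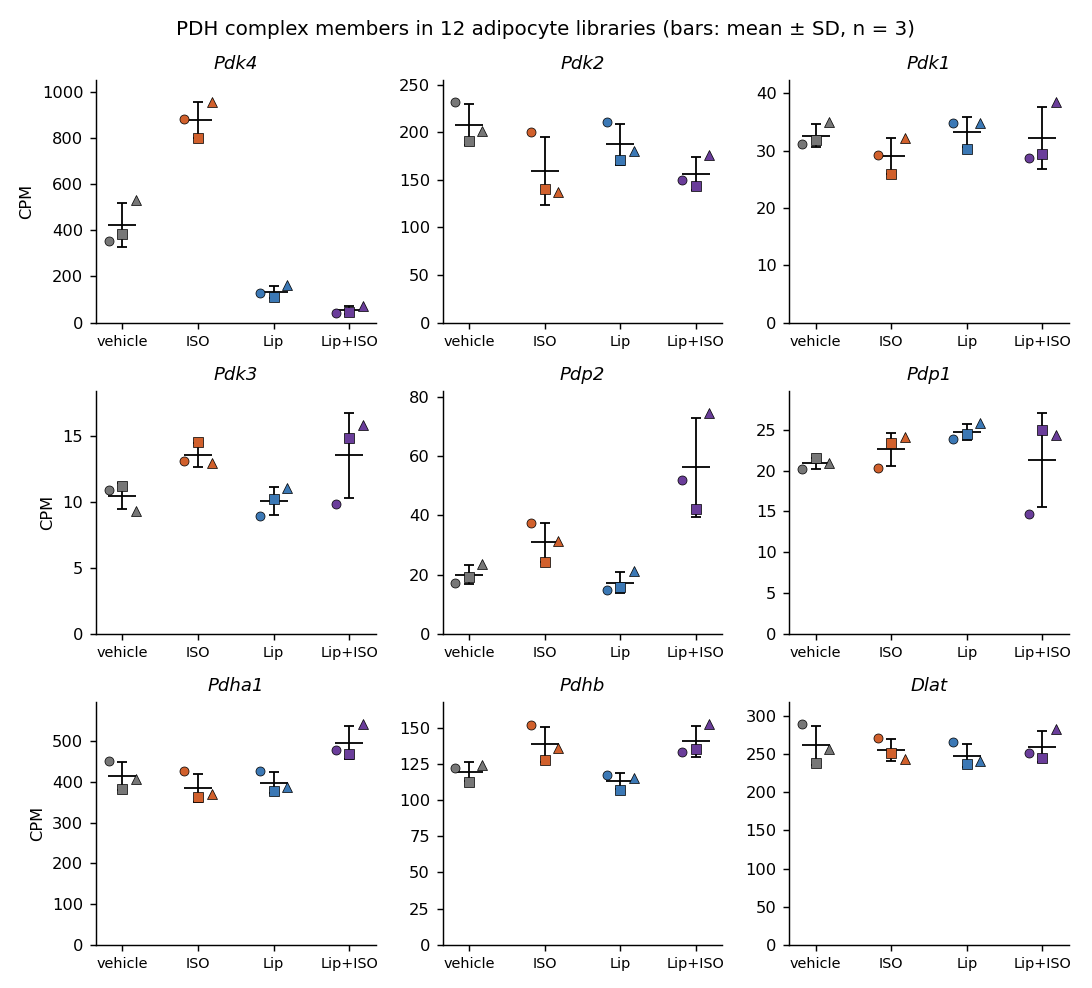
CPM (vertical axes, from 0) of the 9 genes in each of the 12 libraries, by treatment group. Circles, squares and triangles are replicates 1, 2 and 3, and bars give the mean ± SD (n = 3). Pdk4 spans from 42.7 CPM in a Lip+ISO library to 956 CPM in an ISO library, Pdp2 is highest in the 3 Lip+ISO libraries, and Dlat stays between 237 and 289 CPM.

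Among the kinases, only Pdk4 was called when all 12 libraries were fitted together by edgeR with TMM scaling, the filter on low counts and no block. Pdk4 (NM_013743, mm9 chromosome 6, 5433351 to 5446278, minus strand) had 352, 383 and 530.4 CPM in the vehicle libraries. It had 883, 799.6 and 956 CPM in ISO, and 126, 113 and 162 CPM in Lip. In Lip+ISO it had 42.7, 45.8 and 72.5 CPM. No library of 1 group overlapped those of another, so that the order Lip+ISO, Lip, vehicle, ISO held in every library. The response to ISO itself changed direction: it was a rise of 1.06 ± 0.21 on the log2 scale without inhibitors (SE, edgeR adjusted p = 0.0024) and a fall of 1.32 ± 0.21 with them (edgeR adjusted p = 0.000423), and the interaction of -2.38 ± 0.29 was called (edgeR adjusted p = 0.00171). The call of the interaction was lost without replicate 2 of every group, at the same -2.38 (edgeR adjusted p = 0.0759).

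Pdk2 was the other abundant kinase and varied far less. Pdk2 (NM_133667, chromosome 11, 94887572 to 94902685, minus strand) had 232, 191 and 201 CPM in vehicle and 200.5, 139.9 and 137 CPM in ISO. It had 211, 171 and 179.8 CPM in Lip and 150.0, 143 and 176 CPM in Lip+ISO. ISO replicate 1 overlapped the vehicle libraries, and all 3 Lip+ISO libraries lay under every vehicle library. The differences from vehicle, -0.39 ± 0.15 in ISO and -0.41 ± 0.15 in Lip+ISO on the log2 scale (SE), did not pass the test (edgeR adjusted p = 0.0692 and 0.052). Both passed when the replicate number was fitted as a block, at -0.40 (edgeR adjusted p = 0.0123) and -0.40 (edgeR adjusted p = 0.0114). Without ISO replicate 1 the same differences were -0.59 (edgeR adjusted p = 0.0057) and -0.42 (edgeR adjusted p = 0.0138). With library totals in place of TMM they were -0.43 (edgeR adjusted p = 0.0158) and -0.49 (0.0065). Lip+ISO against Lip then passed too (-0.37, edgeR adjusted p = 0.0288). Without the filter on low counts, or with only the groups compared, Lip+ISO against vehicle passed (edgeR adjusted p = 0.0384 and 0.0306) and ISO against vehicle did not.

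The low-level kinases showed no call in any comparison when all libraries were fitted by edgeR without a block. Pdk3 (NM_145630, chromosome X, 91009955 to 91077434, minus strand) had 10.9, 11.2 and 9.32 CPM in vehicle and 13.1, 14.6 and 13.0 CPM in ISO, and these groups did not overlap (0.38 ± 0.17 on the log2 scale, edgeR adjusted p = 0.12). In Lip it had 8.93, 10.3 and 11.1 CPM and in Lip+ISO 9.86, 14.9 and 15.9 CPM, where replicate 1 lay within the range of Lip. Its difference between Lip+ISO and Lip was 0.42 ± 0.17 (edgeR adjusted p = 0.0829). This difference passed with the replicate block (0.42, edgeR adjusted p = 0.0483) and by the DESeq2 Wald test (0.45, DESeq2 adjusted p = 0.0439). It also passed without Lip+ISO replicate 1 (0.61, edgeR adjusted p = 0.00569). Pdk1 (NM_172665, chromosome 2, 71711281 to 71741915, plus strand), a kinase gene known as a hypoxia target, ranged from 25.8 to 38.5 CPM over all 12 libraries. Its groups overlapped in every comparison, with log2 differences between -0.17 and 0.15.

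Because the kinase proteins act on the same substrate, the make-up of the kinase mRNA pool was computed per library from CPM per kb. Pdk4 made up 47.2%, 53.6% and 60.5% of the pool in vehicle and 71.7%, 75.8% and 79.1% in ISO. It made up 25.9%, 27.5% and 33.8% in Lip and 13.9%, 14.8% and 18.4% in Lip+ISO. The groups did not overlap, and the leading kinase was Pdk4 in every ISO library and Pdk2 in every Lip and Lip+ISO library, while in vehicle Pdk2 led narrowly in replicate 1, with 47.5%. The mean difference was 21.7 percentage points between ISO and vehicle and -59.8 points between Lip+ISO and ISO (exact permutation test, two-sided, p = 0.1 for each, the smallest that 3 against 3 allows). Pdk2 made up 41.1% ± 6.24 (SD, n = 3) of the pool in vehicle, 20.8% ± 3.80 in ISO, 62.3% ± 4.47 in Lip and 71.0% ± 3.17 in Lip+ISO. Its level was nonetheless lower in the Lip+ISO libraries, at 69.1 CPM per kb against 91.9 in vehicle, so its larger share there went with the low level of Pdk4. The summed kinase level was 226 ± 24.9 CPM per kb in vehicle, 337 ± 27.7 in ISO, 133 ± 12.02 in Lip and 97.6 ± 14.2 in Lip+ISO (SD, n = 3).

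The phosphatase gene Pdp2 had its highest level in Lip+ISO and was called higher there than in each of the other groups. Pdp2 (NM_001024606, chromosome 8, 107115368 to 107120749, plus strand) had 17.1, 19.3 and 23.5 CPM in vehicle and 37.3, 24.2 and 31.4 CPM in ISO. It had 14.8, 15.8 and 21.2 CPM in Lip and 52.0, 42.1 and 74.6 CPM in Lip+ISO. Every ISO library lay above every vehicle library, if by a small margin in ISO replicate 2, and all 3 Lip+ISO libraries lay above all others. Between ISO and vehicle, the difference of 0.63 ± 0.22 on the log2 scale just missed the threshold (edgeR adjusted p = 0.0534), and it passed with the replicate block (0.64, edgeR adjusted p = 0.00712) and the DESeq2 Wald test (0.64, DESeq2 adjusted p = 0.0209). On leaving libraries out, 10 of 15 fits had an adjusted p above the threshold, up to 0.364, and the other 5 were under it, among them the fit without ISO replicate 2 (0.0373). With the inhibitors present, Pdp2 rose by 1.70 ± 0.22 (edgeR adjusted p = 9.3e-05), a 3.25-fold change, and this call held in all 15 fits that left libraries out. Lip+ISO was also 0.87 ± 0.22 above ISO (edgeR adjusted p = 0.0275). That call was lost without ISO replicate 2 (0.71, edgeR adjusted p = 0.121), ISO replicate 3 (0.87, edgeR adjusted p = 0.085) or Lip+ISO replicate 3 (0.62, edgeR adjusted p = 0.106), and without replicate 2 (0.103) or replicate 3 (0.175) of every group. The interaction for Pdp2 was 1.07 ± 0.31 and did not pass the test (edgeR adjusted p = 0.126). It passed with the replicate block (1.05, edgeR adjusted p = 0.0168) and by the DESeq2 Wald test (1.09, DESeq2 adjusted p = 0.0197), so this call depends on the fit.

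Pdp1 (NM_001098230, chromosome 4, 11885332 to 11893597, minus strand) ranged from 20.2 to 25.8 CPM in 11 libraries and stood at 14.7 CPM in Lip+ISO replicate 1. It was not called in any comparison, with log2 differences of -0.21 to 0.24. All 3 Lip libraries of Pdp1 lay above the vehicle libraries, at 0.24 ± 0.16 on the log2 scale (edgeR adjusted p = 1.00). Pdp2 made up 53.4% ± 3.73 of the summed phosphatase level in vehicle, 61.9% ± 6.71 in ISO, 45.5% ± 3.80 in Lip and 75.7% ± 7.45 in Lip+ISO (SD, n = 3, CPM per kb).

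The ratio of the summed kinase to the summed phosphatase levels, both in CPM per kb, was 22.4, 19.5 and 21.7 in the vehicle libraries and 23.0, 24.6 and 23.9 in ISO. It was 14.3, 11.5 and 11.4 in Lip and 4.86, 5.00 and 4.21 in Lip+ISO. With ISO alone, where both sums were larger, the ratio lay slightly above that of every vehicle library, while each Lip+ISO library had a lower ratio than any library of the other groups. All 5 pairs of groups compared had an exact permutation p = 0.1, the smallest possible, and with 10 shares, sums and ratios tested in 5 comparisons each, adjustment could only raise these values. These are ratios of mRNA and say nothing of protein or of the phosphorylation of the complex, which were not measured here.

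**Figure D2:**
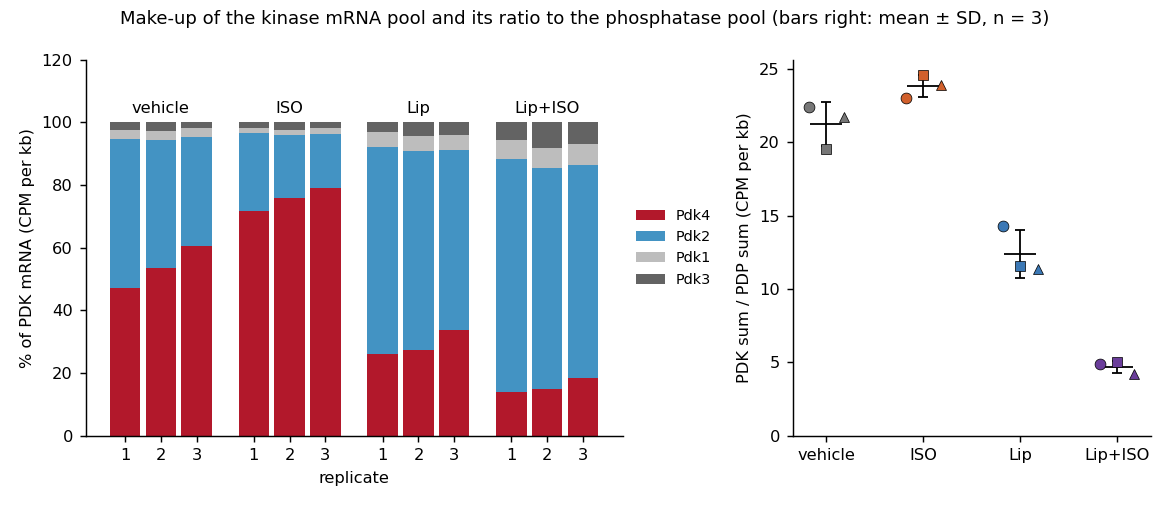
Left, share of each kinase in the summed PDK mRNA of each library, in percent of CPM per kb, with 3 replicates per group. Right, summed PDK level divided by summed PDP level (Pdp1 and Pdp2, CPM per kb), where points are libraries and bars mean ± SD (n = 3). Pdk4 makes up 71.7% to 79.1% of the pool in ISO and 13.9% to 18.4% in Lip+ISO, and the ratio is between 4.21 and 5.00 in Lip+ISO against 19.5 to 22.4 in vehicle.

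The subunits of the complex differed by small amounts. Pdha1 (NM_008810, chromosome X, 156560151 to 156576268, minus strand) had 451, 383 and 407 CPM in vehicle and 426, 362 and 371 CPM in ISO. It had 427, 378 and 389 CPM in Lip and 478, 468 and 542 CPM in Lip+ISO. The 3 Lip+ISO libraries lay above all others, and the remaining groups overlapped. Pdha1 rose by 0.32 ± 0.10 from Lip to Lip+ISO (edgeR adjusted p = 0.0256), a 1.25-fold change, and was 0.36 ± 0.10 higher in Lip+ISO than in ISO (edgeR adjusted p = 0.0341). The first call was lost without Lip replicate 2 (edgeR adjusted p = 0.107), Lip replicate 3 (0.0841) or Lip+ISO replicate 3 (0.0796), where the difference was 0.26 to 0.30, and without replicate 2 (0.148) or replicate 3 (0.246) of every group. The second was lost without vehicle replicate 3 (edgeR adjusted p = 0.056), ISO replicate 2 (0.143), ISO replicate 3 (0.12), Lip replicate 2 (0.051) or Lip+ISO replicate 3 (0.118), with differences of 0.30 to 0.36. The same held with only these groups fitted (0.0918) and when every group lost its replicate 2 (0.223) or its replicate 3 (0.343). Without the filter on low counts, both adjusted p were just above the threshold (0.0516 and 0.0515). Pdha1 overlaps Map3k15 on the opposite strand, and nothing states that the counting used strand. Map3k15 had 25 to 76 counts in a library.

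Pdhb (NM_024221, chromosome 14, 8998505 to 9005506, minus strand) had 122, 112 and 124 CPM in vehicle, 152, 128 and 136 CPM in ISO, 118, 107 and 115 CPM in Lip and 134, 136 and 153 CPM in Lip+ISO. The libraries with ISO lay above those without it, both with and without inhibitors. Pdhb rose by 0.31 ± 0.08 from Lip to Lip+ISO (edgeR adjusted p = 0.0152), a call lost without Lip replicate 2 (0.27, edgeR adjusted p = 0.0806) and without replicate 2 (0.123) or replicate 3 (0.135) of every group. The difference between ISO and vehicle, 0.21 ± 0.08, did not pass (edgeR adjusted p = 0.0843), and passed with the replicate block (0.21, edgeR adjusted p = 0.0279). Dlat (NM_145614, chromosome 9, 50442738 to 50467885, minus strand) overlapped in every comparison, with log2 differences of -0.08 to 0.07 and SE of 0.09. Of the remaining components, Dld, the E3 subunit shared with other dehydrogenase complexes, rose by 0.33 ± 0.10 from Lip to Lip+ISO (edgeR adjusted p = 0.0259). Pdhx, the E3-binding protein, and Pdpr, the regulatory subunit of the phosphatase, were not called in any comparison.

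Over the 9 genes, 1 was called between ISO and vehicle (Pdk4, higher), where 26.2% of all tested genes were called, 12.3% higher and 13.9% lower. The count was 4 in the blocked fit, as Pdk2, Pdp2 and Pdhb were added, and it was 2 without ISO replicate 1, ISO replicate 2, Lip replicate 3, any 1 Lip+ISO library, or when replicate 1 or replicate 3 was left out of each group. All shares of all genes given here are from the fit of all libraries without a block. Counts from other fits cannot be set beside them. Between Lip and vehicle, 1 of 9 was called (Pdk4, lower), where 0.0517% of genes were, 0.00738% higher and 0.0443% lower. Pdk4 fell by 1.66 ± 0.21 on the log2 scale (edgeR adjusted p = 0.0142), and that call was lost without vehicle replicate 2 (-1.73, edgeR adjusted p = 0.0573), vehicle replicate 3 (-1.46, 0.0865) or any 1 Lip library (-1.83 to -1.55, 0.0654 to 0.0899), and without replicate 1 (0.164) or replicate 2 (0.628) of every group. Between Lip+ISO and Lip, 4 of 9 were called (Pdp2, Pdha1 and Pdhb higher, Pdk4 lower), against 27.3% of all genes, 11.5% higher and 15.8% lower. This count was 5 in the blocked fit, where Pdk3 was added, and it was 2 without Lip replicate 2 and with replicate 2 or replicate 3 left out of each group.

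Between Lip+ISO and ISO, 3 of 9 were called (Pdp2 and Pdha1 higher, Pdk4 lower), where 8.94% of all genes were called, 4.36% higher and 4.59% lower. The count was 1 without ISO replicate 2, without ISO replicate 3 or without Lip+ISO replicate 3, and with replicate 2 or replicate 3 left out of each group. Pdk4 was 16.4-fold lower in Lip+ISO than in ISO in the same fit. Between Lip+ISO and vehicle, 2 of 9 were called, against 28.4% of all genes, 12.2% higher and 16.2% lower. They were Pdp2, higher by 1.50 ± 0.22 on the log2 scale (edgeR adjusted p = 0.000252), and Pdk4, lower by 2.97 (log2 -2.97 ± 0.22, edgeR adjusted p = 6.4e-07). With the block, Pdk2, Pdha1 and Pdhb were added, which gave 5, and the count was 4 without ISO replicate 1 or with replicate 1 left out of each group. For the interaction, 1 of 9 was called (Pdk4, negative), where 1.62% of genes were, 0.901% positive and 0.724% negative. The median log2 difference of the 9 genes lay between -0.08 and 0.12 in these comparisons, and that of all tested genes between -0.02 and 0.00. Several of these comparisons share libraries, so their counts are not independent.

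**Figure D3:**
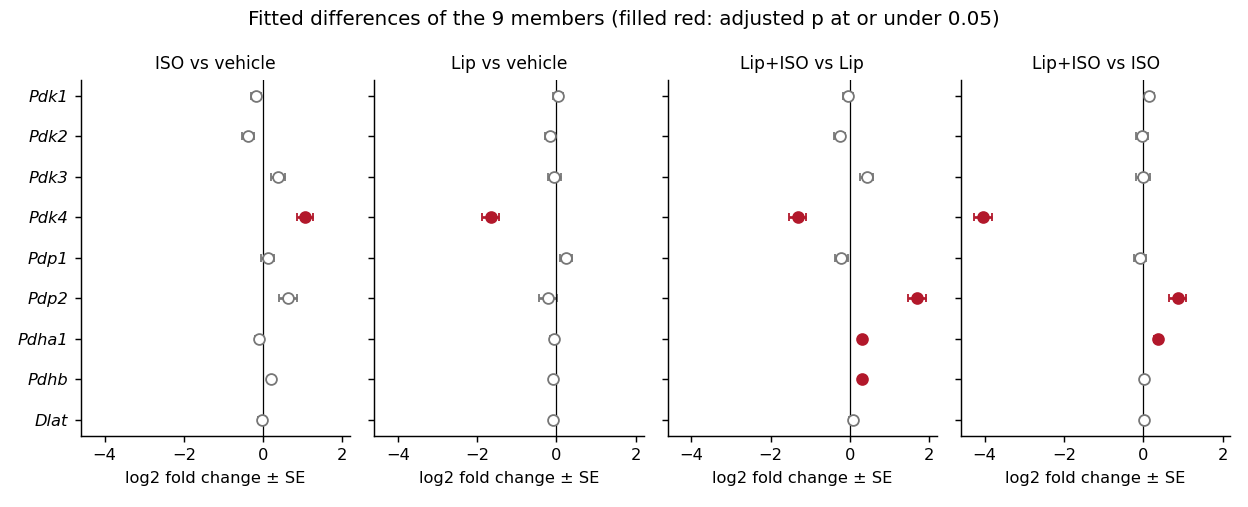
Log2 fold change ± SE (horizontal axes) of the 9 genes in 4 comparisons, from the fit over all 12 libraries. Filled red points have an edgeR adjusted p at or under 0.05. Pdk4 lies at 1.06 for ISO against vehicle and at -4.04 for Lip+ISO against ISO, while Pdp2 lies at 1.70 for Lip+ISO against Lip and Dlat lies between -0.08 and 0.07 in all 4.

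Markers of other cell types also differed with ISO. Between ISO and vehicle, 12.3% of all tested genes were called higher, the share that stands beside each count of markers called higher there. Of 7 macrophage markers, 6 were called higher with ISO. The summed level of the 7 was 62.6 to 93.1 CPM in ISO against 29.7 to 34.6 CPM in vehicle. With inhibitors it was 45.2 to 77.9 CPM in Lip+ISO against 31.1 to 34.0 CPM in Lip. The summed level of 6 endothelial markers was 222 to 402 CPM in ISO against 89.2 to 174 CPM in vehicle, and that of 6 fibroblast or progenitor markers was 406 to 563 CPM against 202 to 373 CPM, with 1 and 2 called higher. The 5 mesothelial markers, 1 of them called higher, summed to 55.4 to 65.9 CPM against 21.0 to 46.8 CPM. Set against ISO, the Lip+ISO libraries had lower sums of these last 3 lists with no overlap, the direction in which Pdk4 also differed. The sums were 72.2 to 213 CPM for the endothelial, 261 to 346 CPM for the fibroblast or progenitor and 37.3 to 46.2 CPM for the mesothelial markers. Among them, 1 endothelial and 2 fibroblast or progenitor markers were called lower, where 4.59% of all tested genes were called lower. The macrophage sums of Lip+ISO and ISO overlapped, and no macrophage marker was called between them. From Lip to Lip+ISO, where Pdk4 fell, 3 macrophage, 1 endothelial and 1 mesothelial marker were called higher, beside 11.5% of all tested genes. No marker of these lists was called lower there. Between Lip and vehicle, where Pdk4 also fell, no marker was called, beside 0.0517% of all tested genes. The adipocyte sum was 26604 to 35454 CPM in ISO and overlapped that of vehicle, 29924 to 38037 CPM, and of Lip+ISO, 23751 to 32097 CPM. Of the 8 adipocyte markers, the leptin gene Lep fell by 1.84 ± 0.25 on the log2 scale with ISO (edgeR adjusted p = 1.92e-04), and the lipase gene Lipe, whose product is the target of CAY10499, was lower by 0.65 (log2 -0.65 ± 0.15, edgeR adjusted p = 0.0165) in Lip+ISO than in ISO. In Lip+ISO, 3 of the 8 were called lower than in vehicle and 2 lower than in Lip. None was called higher, and 16.2% and 15.8% of all tested genes were called lower in these comparisons. No marker list held a gene at 0 in all libraries except that of erythrocytes. The part of these cells in the levels of the 9 genes was not tested.

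The genes around the complex were then described with a list of 55 genes, of which 53 could be tested (Pdha2 and Pklr could not). Between ISO and vehicle, 18 of 53 were called, 11 higher and 7 lower, beside the 26.2% of all tested genes (12.3% higher and 13.9% lower), with a median log2 difference of -0.07 against 0.00 for all genes. The count was 9 without replicate 2 and 7 without replicate 3 of every group. The genes that supply or carry pyruvate and lactate accounted for 6 of the 11 higher ones, out of 10 tested. The lactate carriers Slc16a3 and Slc16a1 rose by 1.41 ± 0.27 (edgeR adjusted p = 0.00213) and 1.00 ± 0.08 (2.2e-06), whereas Ldha, Ldhb, Pkm and the mitochondrial pyruvate carrier gene Mpc2 rose by 0.24 to 0.45.

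Among 11 regulators that include known factors at the Pdk4 gene, 3 were called higher and 5 lower with ISO. Ppargc1a, a coactivator of oxidative genes, rose by 3.79 ± 0.20 (edgeR adjusted p = 7.8e-08), while the glucocorticoid receptor gene Nr3c1, the forkhead factor Foxo3 and Rxra, the partner of the PPARs, fell by 0.79, 0.60 and 0.53 (edgeR adjusted p = 1.1e-04, 0.018 and 0.00799). Plin2, a lipid droplet coat gene and known PPAR target, rose by 0.61 ± 0.15 (edgeR adjusted p = 0.00881). Lipt1, which attaches lipoic acid to the E2 subunits, fell by 0.91 ± 0.18 (edgeR adjusted p = 0.00269).

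Between Lip and vehicle no gene of the wider list was called (0 of 53), beside 0.0517% of all genes. At an unadjusted edgeR p under 0.05 there were 7 of the list, beside 582 of all 13543 tested genes. The DESeq2 Wald test called 1 gene of the list, and its share of all genes is not given. Between Lip+ISO and Lip, 16 of 53 were called, 11 higher and 5 lower, beside 27.3% of all genes (11.5% and 15.8%), and 9 without replicate 2 of every group. Ppargc1a rose by 4.04 ± 0.20 (edgeR adjusted p = 1.6e-08), Gpt2, which links alanine to pyruvate, by 0.85 ± 0.15 (7.8e-04), Slc16a1 by 0.76 ± 0.08 (1.2e-05) and Cpt1a, the gate of fatty acid entry into mitochondria, by 0.59 ± 0.08 (1.2e-04). Angptl4, a fatty acid responsive inhibitor of lipoprotein lipase, fell by 2.33 ± 0.14 (edgeR adjusted p = 8.0e-08), Nr3c1 by 1.36 ± 0.10 (6.9e-07), Lipt1 by 1.13 ± 0.18 (4.1e-04) and Ppara by 0.93 ± 0.20 (0.00388). The mitochondrial pyruvate carrier gene Mpc1 rose by 0.34 ± 0.09 (edgeR adjusted p = 0.0151).

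Between Lip+ISO and ISO, 14 of 53 were called, 4 higher and 10 lower, beside 8.94% of all genes (4.36% and 4.59%), with a median of 0.05 against -0.01 for all genes, and 5 were called with replicate 2, and 6 with replicate 3, left out of each group. The lower genes were led by Angptl4 at -2.86 ± 0.14 (edgeR adjusted p = 2.7e-07), Ppargc1b at -1.75 ± 0.27 (0.00163), Ppara at -1.40 ± 0.20 (9.1e-04) and Pck1 at -1.11 ± 0.26 (0.0174). Angptl4 had 1003, 1088 and 1143 CPM in ISO and 118, 175 and 153 CPM in Lip+ISO. Unlike Pdk4, its libraries were lower in ISO than in vehicle, where they had 1169, 1314 and 1414 CPM, although that difference did not pass (log2 -0.27). The higher genes were Pparg at 0.55 ± 0.08 (edgeR adjusted p = 0.00138), Rxra at 0.51 ± 0.13 (0.0255), Acly, which makes acetyl-CoA for fat synthesis, at 0.45 ± 0.11 (0.0279) and Cpt1a at 0.29 ± 0.08 (0.0429). Among the 9 genes of the list that respond to fatty acids, 3 were lower, Angptl4, Plin2 and Acot2, 1 was higher, Cpt1a, and 5 were not called. Between Lip+ISO and vehicle, 18 of 53 were called, 8 higher and 10 lower, beside 28.4% of all genes (12.2% and 16.2%), and 10 in all without replicate 2 of every group. They were led by Ppargc1a at 4.07 ± 0.20 (edgeR adjusted p = 1.6e-08) and Angptl4 at -3.13 ± 0.14 (7.6e-09). Gpt2, Pkm and Slc16a1 were higher there by 0.80, 0.65 and 0.63, and Ppara, Nr3c1 and Ppargc1b lower, at -1.39, -1.38 and -1.27.

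**Figure D4:**
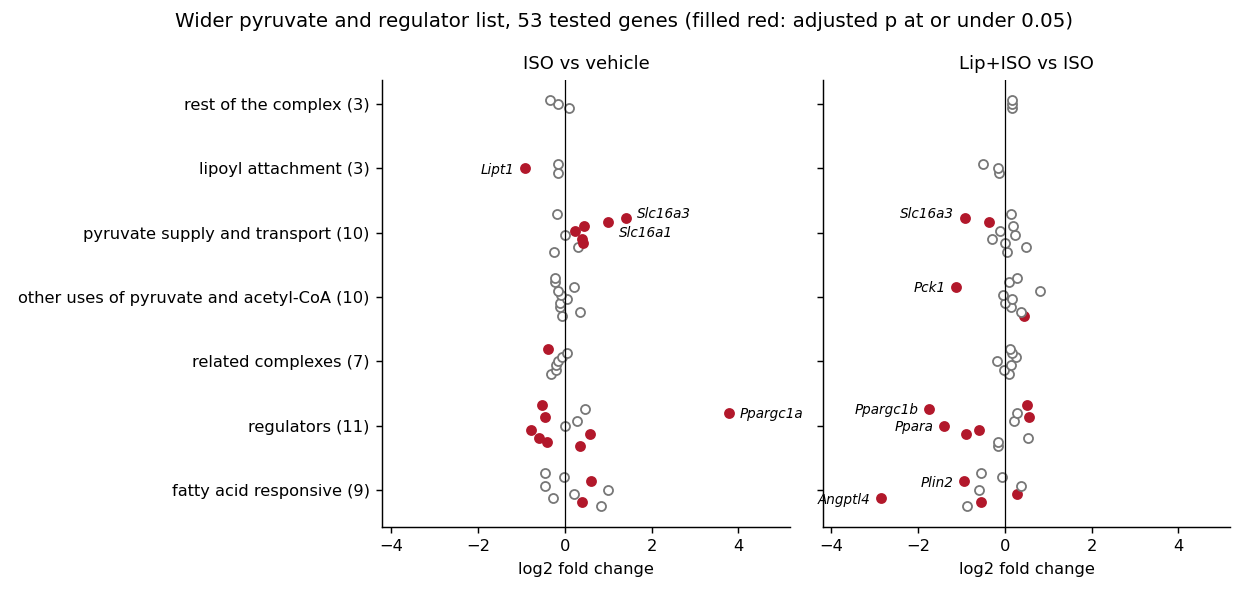
Log2 fold change (horizontal axes) of the 53 tested genes of the wider list, grouped by role, for ISO against vehicle (left) and Lip+ISO against ISO (right). The number of genes per role stands in brackets, filled red points have an edgeR adjusted p at or under 0.05, and called genes at 0.9 or more in size are named. Ppargc1a at 3.79 lies farthest out on the left and Angptl4 at -2.86 on the right. Both panels use the ISO libraries, so they are not independent.

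The genes whose pattern over the 12 libraries was most like that of Pdk4 were found by Pearson's r of log2 CPM among 9837 genes with a mean of at least 5 CPM. They were Plxna2 (r = 0.98), Ccrn4l (0.97), Cyp4f17 (0.96), Fam110c (0.96) and Spry4 (0.95). Ccrn4l, the gene of nocturnin, had mean levels of 109 CPM in vehicle, 258 in ISO, 73.4 in Lip and 40.2 in Lip+ISO, and Plxna2 129, 167, 91.3 and 49.7 CPM. The most opposite were Rnf150 (-0.93), Cebpd (-0.90) and Arrdc3 (-0.90), of which Arrdc3 had 38.6, 34.5, 47.5 and 114 CPM. Among the other 8 genes of the complex and its regulators, r with Pdk4 was -0.64 for Pdha1, -0.33 for Pdp2 and -0.19 to 0.14 for the rest. These values describe 12 libraries that share 4 treatments and are not a test.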

How the data were processed

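RNA sequencing of 12 libraries of mouse eWAs was analysed. The authors deposited raw read counts per gene, made by aligning reads to mm9 with STAR 2.4.2a (per the submitters' processing notes) and counting RefSeq genes with HOMER and iRNA-seq, with 1 read accepted per position and length. Whether strand was used is not given in the sources used here. Lengths and positions are those of the deposited table. Groups and replicate numbers come from the sample titles, all 12 columns were used, and as the study names independent experiments but the labels tie no number to one, p-values measure the spread between these samples.

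Counts were fitted in R 4.3.3 with edgeR 4.0.16 (filterByExpr, TMM, quasi-likelihood F-test, 1 mean per group, no block) and adjusted over 13543 genes by the Benjamini-Hochberg method. The common coefficient of variation was 0.163, and a count of 0 allows 3 counts, 0.0678 to 0.132 CPM, for counting error only. The fit was tested on simulated data. Shares and ratios used CPM per kb and exact permutation tests. Named genes are the 9 members, Dld, Pdhx and Pdpr, and up to 4 called genes of the wider list in each direction per comparison with the largest fold change, to which Mpc1, Mpc2, Ldha, Ldhb, Acot2, Lias, Lipt2, Ppm1k, Dlst and the markers Lep and Lipe were added after their values were seen. The 9 members and all lists were chosen with earlier results of these data known.

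Same-numbered libraries of different groups deviated together (r of 0.0794 to 0.316 over 18 pairs and 2000 variable genes, against -0.230 to 0.0537 for different numbers). Every same-numbered pair was over 0.1 except ISO 3 with Lip+ISO 3, so the blocked fit is printed beside results of the other pairs of groups where it changes the call of a member. For the wider list, only the counts of the blocked fit are given. Alternatives were library totals, DESeq2 1.42.0, no filter, a minimum fold, the block, only the groups compared, and leaving libraries out. Promoter windows were read from the NCBIM37 (mm9) genome. Transcripts of Pdk1 to Pdk4 and of the other members shared no window of 36 bases with one another.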

Additional observations from a re-analysis of the deposited data

Results flagged for a closer look

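By the interaction term of the edgeR fit, the effect of ISO was not the same with lipase inhibitors as without them for 1 of the 9 genes and for 3 of 53 tested genes of the wider list, where 1.62% of all tested genes were called. These counts were 3 and 11 with the replicate block, and 2 and 6 by the DESeq2 Wald test. The share of all genes called in those fits is not given, so these counts cannot be set against the 1.62%. In the fit without a block, the count of 3 of 53 was 1 without vehicle replicate 1, vehicle replicate 3, ISO replicate 3, Lip replicate 1 or Lip replicate 2, and with replicate 2 or replicate 3 left out of each group. Pdk4 had an interaction of -2.38 in log2 units (SE 0.29, edgeR adjusted p = 0.00171). Angptl4 had -2.06 ± 0.19 (edgeR adjusted p = 1.95e-04), with a change by ISO of -0.27 without and -2.33 with inhibitors. Hif1a, the oxygen-regulated factor, had -0.72 ± 0.16 (edgeR adjusted p = 0.0372), rising by 0.59 without inhibitors and not passing the test with them (-0.13). Pparg, the main adipocyte nuclear receptor, had 0.58 ± 0.12 (edgeR adjusted p = 0.0274), falling by 0.46 without inhibitors and not passing with them (0.13). Groups of 3 libraries are too small to look for single outlying samples.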

How the results depend on the processing

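Over 54 member differences, 230 of 261 values from settings other than leaving libraries out and 714 of 810 from leaving libraries out kept their direction and side of the threshold. Counts of called members became 2 with library totals, DESeq2 or only the groups compared, and 4 with the replicate block, for ISO against vehicle. With DESeq2 they became 4 for Lip+ISO against vehicle and 2 for the interaction, and with the block 5 and 3, where Pdp2 (1.05, edgeR adjusted p = 0.0168) and Pdha1 (0.42, 0.0355) joined the interaction. The block changed no other member call than those given here and in the report. A minimum of 1 log2 unit left 2 members for Lip+ISO against Lip and 1 for Lip+ISO against ISO. Leaving libraries out gave 1 to 2 members for ISO against vehicle, 0 to 1 for Lip against vehicle, 2 to 5 for Lip+ISO against Lip, 1 to 3 for Lip+ISO against ISO, 2 to 4 for Lip+ISO against vehicle and 0 to 1 for the interaction. For the wider list, the minimum left 2, 4, 4, 7 and 1 genes for ISO against vehicle, Lip+ISO against Lip, ISO and vehicle, and the interaction. Lip against vehicle gave 1 gene with DESeq2, without the filter and with only the groups compared, and 2 with the block. The interaction gave 6 with DESeq2 and 11 with the block. With the block, the list gave 26 genes for ISO against vehicle, and 20, 19 and 24 for Lip+ISO against Lip, ISO and vehicle. The share of all genes called with DESeq2 or with the block is not given here. Leaving libraries out gave 7 to 20, 0 to 1, 9 to 17, 5 to 15, 10 to 19 and 1 to 4 genes in the order of the members. The share of Pdk4 kept its direction under every alternative, and differences within the block had an exact p = 0.25 (sign flips over 3 pairs, the smallest they allow). Member differences that changed sign were all uncalled. With library totals they were -0.045 for Dlat (Lip+ISO against Lip), -0.016 for Pdhb (Lip+ISO against ISO), -0.012 for Dlat (Lip+ISO against ISO), -0.048 for Pdp1 (Lip+ISO against vehicle) and -0.025 for Pdk3 (the interaction). With DESeq2 they were 0.011 for Pdk3 (Lip+ISO against ISO), 0.0064 for Pdk1 (Lip+ISO against vehicle) and 0.015 for Dlat (Lip+ISO against vehicle). The ranges that crossed 0 when libraries were left out were, for ISO against vehicle, Dlat -0.11 to 0.042. For Lip against vehicle they were Pdk1 -0.042 to 0.093, Pdk3 -0.20 to 0.051, Pdha1 -0.12 to 0.0096 and Dlat -0.15 to 0.0023. For Lip+ISO against Lip they were Pdk1 -0.18 to 0.075 and Dlat -0.020 to 0.16. For Lip+ISO against ISO they were Pdk2 -0.21 to 0.21, Pdk3 -0.16 to 0.18, Pdp1 -0.21 to 0.12, Pdhb -0.055 to 0.14 and Dlat -0.074 to 0.11. For Lip+ISO against vehicle they were Pdk1 -0.16 to 0.056, Pdp1 -0.10 to 0.24 and Dlat -0.089 to 0.10. For the interaction they were Pdk1 -0.0082 to 0.28, Pdk2 -0.065 to 0.38, Pdk3 -0.058 to 0.23 and Dlat -0.0044 to 0.17. The cause of these changes was not tested. With 3 libraries a group, calls of small differences such as those of Pdha1 and Pdhb were lost when some libraries were left out. The differences kept their sign in all 15 fits. For Pdha1 they were 0.23 to 0.41 for Lip+ISO against Lip and 0.26 to 0.47 for Lip+ISO against ISO. For Pdhb they were 0.26 to 0.39 for Lip+ISO against Lip.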

Other observations

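The genes that attach lipoic acid to the E2 subunits, and the related dehydrogenase complexes, were described as well. Lipt1 had 10.1, 9.48 and 11.2 CPM in vehicle against 5.50, 4.71 and 4.41 CPM in Lip+ISO, and fell by 1.07 ± 0.18 on the log2 scale (edgeR adjusted p = 6.4e-04). Lipt2 and Lias, of the same lipoylation steps, fell by 0.65 ± 0.18 (edgeR adjusted p = 0.0171) and 0.28 ± 0.09 (0.027), in the same comparison, where 16.2% of all tested genes were called lower. Lipt1, Lipt2 and Lias differed by -0.17, -0.49 and -0.13 between Lip+ISO and ISO, which did not pass (edgeR adjusted p = 0.628, 0.12 and 0.391). Of 7 genes of the related complexes, Ppm1k, the phosphatase of the branched-chain keto acid complex, was called lower with ISO (-0.38 ± 0.11, edgeR adjusted p = 0.0247). Between ISO and vehicle, 26.2% of all tested genes were called, 13.9% lower. Dlst, the E2 subunit of the oxoglutarate complex, rose from Lip to Lip+ISO (0.24 ± 0.08, edgeR adjusted p = 0.0489). There, 27.3% of all tested genes were called, 11.5% higher. With 1 of 7 called in each, these counts do not set the related complexes apart from all genes. No other gene of these complexes was called in any of the 6 tests.

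The level of Pdk2 relative to its substrate gene Pdha1, per length, was 0.471 to 0.490 in the vehicle libraries, 0.353 to 0.449 in ISO, 0.430 to 0.471 in Lip and 0.292 to 0.309 in Lip+ISO. The Lip+ISO libraries lay below all others (exact permutation test against vehicle, two-sided, p = 0.1, the smallest possible with 3 against 3).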
